A study of Mus musculus with 10 samples.

Results

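The gene for p53, *Trp53*, and 9 genes known as its targets in stressed cells were examined in OP9 stromal cells by RNA-seq. The 10 genes were given by name, and 9 of them had a value among the 26888 genes of the deposited table. *Pmaip1* was not analysed here. The study compared OP9 cells that had been reaggregated in 3 dimensions with OP9 cells kept as flat cultures under medium, in a search for signals that support developing blood stem cells. OP9 is a single mouse stromal line from calvaria, labelled foetal, of strain (C57BL/6xC3H)F2-op/op, in which the op/op mutation removes functional macrophage colony-stimulating factor, and all 10 libraries carry that genotype. The paper instead gives newborn mice as the origin of the line.
The 6 reaggregates were pellets spun from a trypsin suspension, which then spent 48 h on nitrocellulose filters with 0.8-µm pores between liquid and gas. Reaggregates 2, 4 and 6 received interleukin 3 (IL-3), at a dose the Methods give as 200 µg/µl, and reaggregates 1, 3 and 5 did not. The 4 flat cultures had neither a time in culture nor an added agent in their labels. Flat cultures 2 and 4 were labelled as cells from the de Bruijn lab, whereas flat cultures 1 and 3 and all reaggregates had no source in their labels. The Methods name 2 research groups in which flat cells had been kept, of which the de Bruijn group is 1, and do not assign libraries to them. Reaggregates were also taken apart with collagenase and dispase before RNA extraction, a step that is not described for the flat cultures.
As background, p53 is a transcription factor that accumulates when DNA damage, oncogene activity or nutrient stress frees it from the ubiquitin ligase Mdm2. It then raises genes that halt the cell cycle, repair DNA, restrain growth signalling or start apoptosis, and it raises *Mdm2* itself, which closes a feedback loop. Much of its regulation acts on the protein, so that the abundance of *Trp53* RNA need not follow p53 activity. Several of its targets, among them *Sesn2*, *Gdf15* and *Bbc3*, also respond to other transcription factors.

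Each value is in RPM, the reads of a gene scaled to a total of 1e6 reads on genes in that library. Estimated depth was between 7.35 and 9.43 M reads on genes in reaggregates and between 8.26 and 8.70 M in flat cultures (M, 1e6 reads). At this depth 3 reads, taken as the floor, corresponded to between 0.318 and 0.408 RPM, which covers counting error only. The lowest of the 90 member values rested on about 84.0 reads, so that no member was near the floor.
Of 10 stromal markers, 7 were above the floor in every library. *Col1a2* was the most abundant over all libraries, with a mean of 9630 ± 1612 RPM (SD, n = 6) over reaggregates against 3228 ± 2250 RPM (SD, n = 4) over flat cultures, and *Thy1* alone was at or under the floor in every library. *Lum* was at or under the floor in all 4 flat cultures and above it in all reaggregates, and *Dcn* was at 0.119 RPM, under the floor, in flat culture 2. The call of *Col1a2* as higher in reaggregates was lost in 5 of 25 alternatives, with consecutive reaggregates averaged among them. The blood markers *Ptprc*, *Emr1* and *Cd3e* were listed at 0 in all libraries, and the 6 blood markers in the table summed to at most 9.38 RPM, most of it *Cd68*, with none of the 3 that passed the filter called. Of 6 endothelial markers, *Cdh5*, *Kdr*, *Tie1* and *Emcn* were at or under the floor everywhere, and the list summed to at most 1.23 RPM, with *Pecam1* the most abundant and the 1 gene that passed the filter not called. Among adipocyte markers, *Cfd* was at or under the floor in all libraries, and the most abundant, *Fabp4*, was at 31.3, 435, 47.2 and 711 RPM in flat cultures 1 to 4 and between 19.1 and 44.4 RPM in reaggregates. Of the 4 adipocyte markers that passed the filter, *Fabp4* alone was called, as lower in reaggregates, and that call was lost in 15 of 25 alternatives, among them the removal of any reaggregate or of flat culture 2 or 4.

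With all libraries in the fit, targets of p53 were called in both directions between the culture conditions. In reaggregates *Trp53inp1*, *Sesn1* and *Bbc3* were more than 2-fold higher than in flat cultures, *Ccng1* was more than 2-fold lower, and *Trp53* was level. Differences were taken on log2(RPM + 0.5) as reaggregates minus flat cultures, fitted with limma to the 16933 genes that exceeded 0.5 RPM in 1 library or more, and a gene was called at a fold change of at least 2 with an adjusted p of at most 0.05. All 9 members passed that filter. By this rule 3 of the 9 were called higher, against 7.32% of all genes tested, and 1 was called lower, against 6.53%. The members called numbered 1 higher and 0 lower with consecutive reaggregates averaged or with either IL-3 group of reaggregates alone, and 0 in both directions against the flat cultures without a source label. All genes called were also fewer, from 1239 higher and 1106 lower with all libraries. They numbered 312 and 429 with averaging, 345 and 474 without IL-3 and 277 and 360 with it. Against the cultures without a source label they numbered 627 and 1044. The number of members lower was 0 without flat culture 2 or 4, and 2 without flat culture 1 or 3 and against the de Bruijn cultures alone. Over all genes, those called lower numbered 1109 without flat culture 2 and 815 without flat culture 4. They numbered 1149 without flat culture 1, 1522 without flat culture 3 and 1775 against the de Bruijn cultures. At any fold, 3 passed the adjusted p as higher and 3 as lower, where the shares of all genes were 13.6% and 15.7%. Without flat culture 4, *Mdm2* and *Bax* did not pass as lower (limma adjusted p = 0.0737 and 0.134). *Mdm2* also did not pass without flat culture 2 (limma adjusted p = 0.0578), nor *Bax* without flat culture 1 (limma adjusted p = 0.0839). Neither passed with only the libraries numbered 1 to 4, with either IL-3 group alone or against the cultures without a source label. *Bax* also did not pass without any 1 of the reaggregates, with median-ratio scaling (0.0533) or without the trend (0.0734). With consecutive reaggregates averaged 1 passed as higher and 0 as lower. For that setting no share of all genes at any fold is given. Reaggregates lay wholly above flat cultures for 2 members and wholly below for 2, where all genes gave 7.8% and 11.4%. The median log2 difference was 0.03 over the 9 members and 0.04 over all genes tested.
These are bulk samples, in which fewer cells of a kind and less RNA per cell cannot be told apart. The labels do not say that libraries came from separate cultures, and p-values therefore measure only the spread between these libraries. Reaggregates 1 and 2, 3 and 4, and 5 and 6 resembled each other closely: within these pairs the members differed by a factor of 1.01 to 1.19. Calls of the members are for that reason also given with these pairs averaged, as 3 samples. Exact permutation of reaggregates against flat cultures treated all 6 reaggregates as separate, without this averaging. Cell source, enzymatic dissociation and culture condition cannot be told apart where they run together, and results of the members against each pair of flat cultures are given where a call changes.

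**Figure D1:**
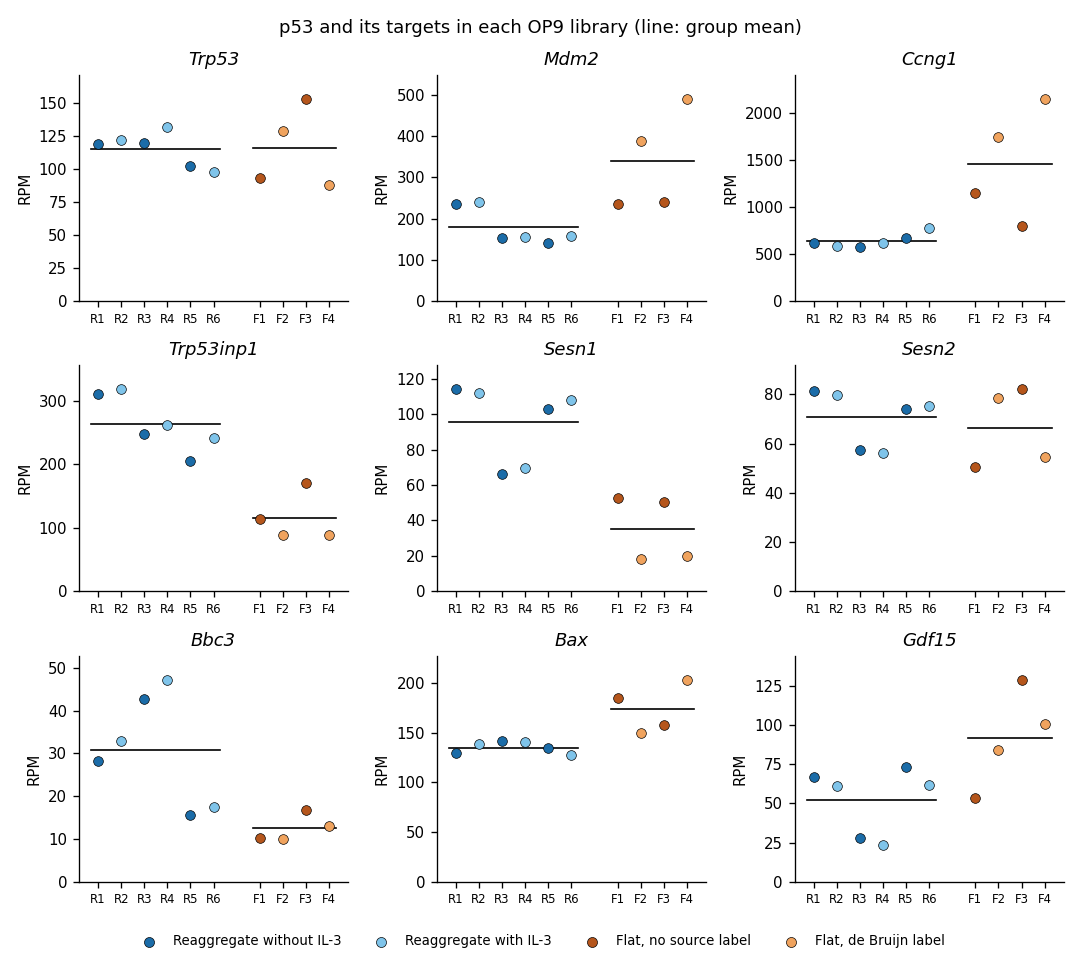
RPM of p53 and 8 of its targets in every library, with reaggregates 1 to 6 (R1 to R6) and flat cultures 1 to 4 (F1 to F4) on the horizontal axis, 1 point per library and a line at each group mean. *Trp53inp1* and *Sesn1* are higher in every reaggregate than in any flat culture, and *Ccng1* and *Bax* are lower. Flat cultures 2 and 4 lie above flat cultures 1 and 3 for *Mdm2* and *Ccng1* and below them for *Sesn1*.

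*Trp53* (ENSMUSG00000059552, plus strand of chromosome 11, 69393861 to 69405375 in NCBI37/mm9) ranged from 97.4 RPM to a highest value of 132 RPM in reaggregates, with a median of 119.5 RPM, and was at 92.8, 129, 153 and 87.9 RPM in flat cultures 1 to 4. The flat cultures spread more widely than the reaggregates and enclosed all of them. Group means were 115 ± 13.1 RPM (SD, n = 6) against 116 ± 30.9 RPM (SD, n = 4), and the log2 difference was 0.03 (SE 0.174, 95% CI −0.35 to 0.41, limma adjusted p = 0.916). The interval is narrower than the 2-fold change required for a call, in either direction.
*Mdm2* (ENSMUSG00000020184, minus strand of chromosome 10, 117125944 to 117147814) encodes the ligase that marks p53 for degradation. It ranged from 140 to 239 RPM in reaggregates, with a median of 156 RPM, and was at 236, 387, 241 and 490 RPM in flat cultures 1 to 4. Reaggregates 1 and 2 stood above the other reaggregates and reached the level of flat cultures 1 and 3, so that the groups overlapped, whereas flat cultures 2 and 4 were higher than all other libraries. The mean was 180 ± 44.9 RPM (SD, n = 6) against 338.5 ± 123 RPM (SD, n = 4). The log2 difference of −0.87 (SE 0.245, limma adjusted p = 0.0218) passed the adjusted p but not the fold change, and with consecutive reaggregates averaged the limma adjusted p was 0.131. It was called when flat culture 1 was left out (−1.02), when flat culture 3 was left out (−1.01) and against the de Bruijn cultures alone (−1.31), and it was −0.44 against the cultures without a source label, with adjusted p from 0.00148 to 0.212 over 25 alternatives.

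*Ccng1* (ENSMUSG00000020326, minus strand of chromosome 11, 40562054 to 40568813) encodes cyclin G1, which recruits a phosphatase to Mdm2. It ranged from 578 to 778 RPM in reaggregates, with a median of 615.5 RPM, and was at 1150, 1750, 799 and 2150 RPM in flat cultures 1 to 4. Every flat culture exceeded every reaggregate, although flat culture 3 exceeded reaggregate 6 by little, and flat cultures 2 and 4 were again the highest. The mean was 639.8 ± 75.1 RPM (SD, n = 6) in reaggregates against 1462 ± 604 RPM (SD, n = 4) in flat cultures, with a log2 difference of −1.10 (SE 0.252, 95% CI −1.65 to −0.55, limma adjusted p = 0.00893; two-sided p = 0.00476 by exact permutation, the lowest value possible with 6 and 4 libraries).
The direction of *Ccng1* held in all 25 alternatives, but the call did not. The log2 difference was −0.98 without flat culture 2 and −0.88 without flat culture 4, both under the fold change required. It was −0.59 against the cultures without a source label and −1.61 against the de Bruijn cultures. With consecutive reaggregates averaged, the log2 difference was −1.10 and the limma adjusted p was 0.104, within a range of 6.43e-05 to 0.121 over the alternatives. The call was also lost when only the reaggregates with IL-3, or only those without it, were compared with the flat cultures.

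*Trp53inp1* (ENSMUSG00000028211, plus strand of chromosome 4, 11083578 to 11101526) encodes a stress protein that binds kinases of p53 and takes part in autophagy. It ranged from 205 to 318 RPM in reaggregates, with a median of 255 RPM, and was at 114, 88.3, 170 and 89.2 RPM in flat cultures 1 to 4. The groups did not overlap, and flat culture 3 was nearest to the reaggregates. The mean was 264 ± 43.2 RPM (SD, n = 6) in reaggregates against 115 ± 38.3 RPM (SD, n = 4) in flat cultures, with a log2 difference of 1.23 (SE 0.203, 95% CI 0.79 to 1.67, limma adjusted p = 0.0017; exact permutation p = 0.00476). The call held in 24 of 25 alternatives, with consecutive reaggregates averaged among them (limma adjusted p = 0.0417, range 9.47e-05 to 0.0487). The exception was the comparison with the cultures without a source label, where the log2 difference was 0.91, and it was 1.55 against the de Bruijn cultures.

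The sestrins are stress proteins that restrain the growth kinase complex mTORC1 by binding the complex GATOR2. *Sesn1* (ENSMUSG00000038332, plus strand of chromosome 10, 41530380 to 41628230) ranged from 66.2 to 114 RPM in reaggregates, with a median of 105.5 RPM, and was at 52.8, 18.5, 50.3 and 19.8 RPM in flat cultures 1 to 4. Reaggregates 3 and 4 were the lowest of their group, flat cultures 2 and 4 were far below flat cultures 1 and 3, and the groups did not overlap. The mean was 95.5 ± 21.7 RPM (SD, n = 6) in reaggregates against 35.4 ± 18.7 RPM (SD, n = 4) in flat cultures, with a log2 difference of 1.55 (SE 0.323, 95% CI 0.85 to 2.26, limma adjusted p = 0.00562; exact permutation p = 0.00476). It was 0.85, under the fold change required, against the cultures without a source label and 2.25 against the de Bruijn cultures. With consecutive reaggregates averaged the limma adjusted p was 0.0725 (range 6.52e-05 to 0.0726), and the call was also lost with either IL-3 group of reaggregates alone.
*Sesn2* (ENSMUSG00000028893, minus strand of chromosome 4, 132047947 to 132066416) ranged from 56.2 to 81.4 RPM in reaggregates, with a median of 74.7 RPM, and was at 50.3, 78.7, 82.0 and 54.6 RPM in flat cultures 1 to 4. Both groups had a lower and a higher set of libraries, and they overlapped over nearly their whole range. The log2 difference was 0.11 (SE 0.184, 95% CI −0.29 to 0.51, limma adjusted p = 0.672). The gene model *Gm12981* overlaps *Sesn2* on the same strand and was at 0.181 RPM or less in both group means.

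Of the 9 members with values, *Bbc3* and *Bax* act directly in apoptosis. *Bbc3* (ENSMUSG00000002083, plus strand of chromosome 7, 16894965 to 16903554) encodes Puma, a BH3-only protein that neutralises pro-survival Bcl-2 proteins. It ranged from 15.7 to 47.2 RPM in reaggregates, with a median of 30.65 RPM, and was at 10.2, 10, 16.8 and 13 RPM in flat cultures 1 to 4. Reaggregates 3 and 4 were the highest, and reaggregates 5 and 6 were near the flat cultures, with reaggregate 5 below flat culture 3. The mean was 30.7 ± 12.9 RPM (SD, n = 6) in reaggregates against 12.5 ± 3.18 RPM (SD, n = 4) in flat cultures, with a log2 difference of 1.18 (SE 0.319, 95% CI 0.48 to 1.88, limma adjusted p = 0.0185; exact permutation p = 0.0143). With consecutive reaggregates averaged the limma adjusted p was 0.0915 (range 0.0029 to 0.116), and the call was also lost with either IL-3 group alone and against the cultures without a source label, where the log2 difference was 1.08, and it was 1.28 against the de Bruijn cultures.
*Bax* (ENSMUSG00000003873, minus strand of chromosome 7, 52717065 to 52722268) encodes an effector that permeabilises mitochondria. It ranged from 127 to 141 RPM in reaggregates, with a median of 136 RPM, and was at 185, 150, 158 and 203 RPM in flat cultures 1 to 4. Every flat culture exceeded every reaggregate, by a small margin for flat culture 2. Group means were 135 ± 5.85 RPM (SD, n = 6) against 174 ± 24.5 RPM (SD, n = 4), a log2 difference of −0.36 (SE 0.122, 95% CI −0.62 to −0.09, limma adjusted p = 0.0463; exact permutation p = 0.00476), which is less than the 2-fold change of a call. With consecutive reaggregates averaged the limma adjusted p was 0.243 (range 0.0256 to 0.262).
*Gdf15* (ENSMUSG00000038508, minus strand of chromosome 8, 73153292 to 73156355) encodes a secreted stress hormone of the TGF-β family. It ranged from 23.7 to 73.0 RPM in reaggregates, with a median of 61.25 RPM, and was at 53.8, 84.3, 129 and 101 RPM in flat cultures 1 to 4. Reaggregates 3 and 4 were well below the other reaggregates, and flat culture 1 lay among the reaggregates. Group means were 52.3 ± 21.0 RPM (SD, n = 6) against 92.0 ± 31.5 RPM (SD, n = 4), with a log2 difference of −0.86 (SE 0.357, 95% CI −1.64 to −0.08, limma adjusted p = 0.0863; exact permutation p = 0.081) that was not called.

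**Figure D2:**
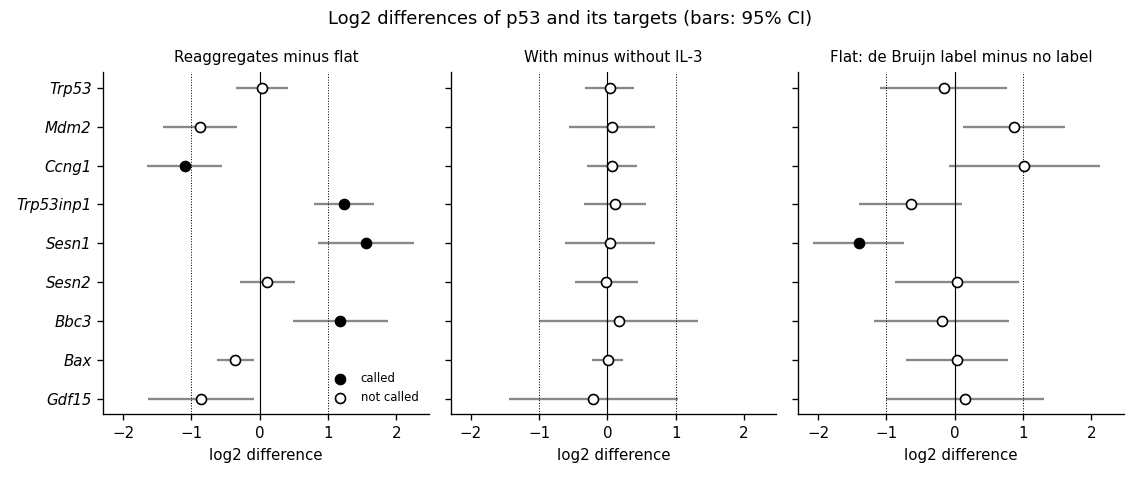
Log2 differences of p53 and 8 of its targets in 3 comparisons (horizontal axis, log2 scale), with 95% confidence intervals as bars, filled points for genes called and dotted lines at a 2-fold change. *Ccng1* is called lower and *Trp53inp1*, *Sesn1* and *Bbc3* higher in reaggregates, no member is called for IL-3, and *Sesn1* is called lower in flat cultures with the de Bruijn label.

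Levels of different genes were compared per kb of exon sequence. In flat cultures the order was *Ccng1* at 416 RPM per kb, *Bax* at 130, *Mdm2* at 66.8, *Gdf15* at 49.7, *Trp53* at 28.6, *Sesn2* at 19.1, *Trp53inp1* at 17.8, *Sesn1* at 10.6 and *Bbc3* at 6.23 RPM per kb. *Ccng1* and *Bax* were each separated from the next gene in every library, whereas from *Mdm2* downwards the ranges of all 6 neighbouring pairs overlapped. In reaggregates *Ccng1* at 182 RPM per kb and *Bax* at 101 again led and were again separate. *Trp53inp1* came next at 40.8 RPM per kb, followed by *Mdm2* at 35.5, *Sesn1* at 28.7, *Trp53* at 28.5, *Gdf15* at 28.3, *Sesn2* at 20.4 and *Bbc3* at 15.3 RPM per kb, again with overlap between all neighbours from *Trp53inp1* downwards. Per length, *Trp53inp1* was thus above *Mdm2* in the mean of reaggregates and below it in that of flat cultures.
Within each group, members also varied in different ways. Among reaggregates, *Mdm2* was highest in 1 and 2, *Bbc3* in 3 and 4, and *Ccng1* in 5 and 6, while *Sesn1*, *Sesn2* and *Gdf15* were lowest in 3 and 4. Among flat cultures, 2 and 4 had the highest *Mdm2* and *Ccng1* and the lowest *Trp53inp1* and *Sesn1*.

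IL-3 was compared within the reaggregates, to ask whether the cytokine acts on the stroma itself. No member was called in the 3 reaggregates with IL-3 against the 3 without, and over all genes 0.0% were called higher and 0.0% lower, while 68 genes, or 0.402%, had an unadjusted limma p of at most 0.05. The members' log2 differences, with minus without IL-3, lay between −0.20 for *Gdf15* and 0.17 for *Bbc3*. The 95% CI was −0.23 to 0.23 for *Bax* and −0.99 to 1.33 for *Bbc3*, so that a 2-fold change lay outside the interval for some members and inside it for others. *Bbc3*, *Trp53inp1* and *Mdm2* were higher with IL-3 in each of the 3 consecutive pairs, and *Gdf15* was lower in each. With these pairs as a block, no gene was called, and 564 genes, or 3.33%, had an unadjusted limma p of at most 0.05. The 95% CI was then −0.35 to −0.06 for *Gdf15* and 0.00 to 0.34 for *Bbc3*, and the intervals of all 9 members lay within −0.35 to 0.34, short of a 2-fold change. A two-sided exact permutation p cannot go below 0.1 with 3 against 3. Within the 3 pairs, where only the labels of a pair are exchanged (sign flips), the two-sided exact p cannot go below 0.25.

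The source of the cells was compared within the flat cultures, as flat cultures 2 and 4, with the de Bruijn label, minus flat cultures 1 and 3. The Methods also name passage number as a source of variance among OP9 samples, and the labels give none, so that source and passage cannot be told apart. *Sesn1* was called lower, at 18.5 and 19.8 RPM against 52.8 and 50.3 RPM, a log2 difference of −1.41 (SE 0.266, limma adjusted p = 0.0474, range 0.0453 to 0.417), and the call was lost when any of the 4 cultures was left out, with log2 differences of −1.45 to −1.36 and no gene called in those settings. It was the only member called, where all genes gave 1.82% higher and 3.87% lower. The split was 309 higher and 656 lower with RPM as deposited and 791 higher and 972 lower after quantile normalization, which moved the median of all genes from −0.17 to 0.05. Relative to that median, the log2 difference of *Sesn1* was −1.24 with RPM as deposited and −1.25 after quantile normalization. *Mdm2* and *Ccng1* had log2 differences of 0.87 and 1.02 (limma adjusted p = 0.164 and 0.248) and *Trp53inp1* of −0.65 (limma adjusted p = 0.277), and in these 3 genes both de Bruijn cultures lay on the same side of both others. For *Trp53*, *Sesn2*, *Bbc3*, *Bax* and *Gdf15* the log2 differences lay between −0.19 and 0.15. Some markers of cell state differed between the same cultures. The adipocyte markers in the table, with *Fabp4* the most abundant and *Cfd* at 0 in all 4, summed to 31.3, 440, 47.4 and 716 RPM in flat cultures 1 to 4. Of the stromal markers, which summed to 11650, 11880, 19180 and 8167 RPM with *Vim* the most abundant in each, *Col3a1* was at 345, 38.8, 960 and 31.5 RPM and *Dcn* at 7.48, 0.119, 22.8 and 0.486 RPM, and *Lum* was listed at 0 in flat cultures 1, 2 and 4 and *Thy1* in 2 and 4. *Col1a1* and *Col1a2* were also lower in flat cultures 2 and 4 than in 1 and 3. *Pdgfrb* did not split by source, at 122, 376, 266 and 190 RPM in flat cultures 1 to 4. Nor did 3 markers named after their values were seen. These were *Vim* at 5760, 7800, 6980 and 5950 RPM, *Pdgfra* at 89, 145, 160 and 99 RPM and *Mcam* at 1.96, 6.32, 9.1 and 7.65 RPM. The part of these markers in the differences of the members was not tested. With 2 against 2, a two-sided exact permutation p cannot go below 0.333.

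Other p53 targets were taken from a list of 40 genes, of which 38 passed the filter. Of these, 6 were called higher in reaggregates and 4 lower, with a median log2 difference of 0.23, and without flat culture 1 the number lower was 7. Over all 16933 genes tested, 7.32% were called higher and 6.53% lower, and these shares also apply to the lists below. Leaving out 1 library at a time gave 4 to 8 called higher and 4 to 7 lower. Against the de Bruijn cultures alone 10 were called higher and 8 lower, where all genes gave 2579 and 1775. *Gadd45a*, a growth arrest and DNA damage gene, rose to 291 ± 107 RPM (SD, n = 6) in reaggregates against 18.2 ± 4.53 RPM (SD, n = 4) in flat cultures, with a log2 difference of 3.91 (SE 0.279, limma adjusted p = 3.15e-05), and kept its call in all 25 alternatives. *Sulf2*, an extracellular sulfatase, and *Fdxr*, a mitochondrial reductase, had log2 differences of 2.04 and 1.60. The other 3 genes called higher were *Ddit4* and, named after their values were seen, *Fas* and *Dgka*. The calls of *Fas*, *Dgka* and *Ddit4* were lost in 6, 11 and 10 of 25 alternatives. These included the averaging of consecutive reaggregates for all 3, the removal of flat culture 1 for *Fas*, and the removal of any of reaggregates 1 to 4 or of flat culture 2 or 4 for *Dgka*. For *Ddit4* they included the removal of reaggregate 1 or 2 or of flat culture 2 or 4.
In the opposite direction, *Ccnd1*, which encodes cyclin D1, fell to 219 ± 32.4 RPM (SD, n = 6) in reaggregates against 1435 ± 530.2 RPM (SD, n = 4) in flat cultures, with a log2 difference of −2.64. *Ckap2*, which encodes a spindle protein, had a log2 difference of −2.03. *Tigar*, listed as *9630033F20Rik*, which encodes a sugar phosphatase, had −1.41, and *Slc19a2*, named after its values were seen, was the remaining gene called lower. The call of *Tigar* was lost with consecutive reaggregates averaged, with either IL-3 group alone and against the cultures without a source label, whereas *Sulf2*, *Fdxr*, *Ccnd1*, *Ckap2* and *Slc19a2* were called in all 25 alternatives. With consecutive reaggregates averaged, 3 genes of the list were called higher and 3 lower. *Cdkn1a*, which encodes the cell cycle inhibitor p21 and is named here after its values were seen, ranged from 616 to 1070 RPM in reaggregates and was at 553, 473, 573 and 322 RPM in flat cultures 1 to 4. Its groups did not overlap, and its log2 difference of 0.83 (SE 0.222, limma adjusted p = 0.0179, range 0.00576 to 0.131) was under the fold change of a call. It was 0.56 against the cultures without a source label, and 1.09 and called against the de Bruijn cultures alone.

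Among 18 regulators and relatives of p53, 17 passed the filter, none was called higher and 3 were called lower, with a median log2 difference of 0.20. The number called higher was 1 without reaggregate 3, 1 without flat culture 1 and 2 without flat culture 3. *Chek1*, which encodes a DNA damage kinase, fell to 3.78 ± 0.951 RPM (SD, n = 6) in reaggregates against 16.9 ± 6.02 RPM (SD, n = 4) in flat cultures, with a log2 difference of −1.97 (SE 0.277, limma adjusted p = 0.000726), and kept its call in all 25 alternatives. *Trp63*, a relative of p53, had a log2 difference of −1.58 and *Rps27l*, which encodes a ribosomal protein that binds Mdm2, of −1.19. The calls of *Trp63* and *Rps27l* were lost with consecutive reaggregates averaged and with either IL-3 group alone, that of *Trp63* also against the de Bruijn cultures, and that of *Rps27l* also without flat culture 4 and against the cultures without a source label. Against the de Bruijn cultures alone, 3 regulators were called higher and 3 lower.
*Cdkn2a*, which has the Mdm2 inhibitor Arf among its products, is also named after its values were seen. Its reads are summed over the whole gene, so that its values are not those of Arf alone. *Cdkn2a* was at 36.3 and 37.9 RPM in flat cultures 2 and 4, listed at 0 in flat cultures 1 and 3, and at or under the floor in all 6 reaggregates. The same libraries, flat cultures 2 and 4, were those with the highest *Mdm2* and *Ccng1* and the lowest *Sesn1*, and any part of *Cdkn2a* in those levels was not tested.

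The Bcl-2 family, to which *Bax* and *Bbc3* belong, had 14 genes with values, of which 11 passed the filter. With *Bbc3*, 3 were called higher and 1 lower, and the median log2 difference was −0.24. The BH3-only genes *Bmf* and *Bcl2l11*, which encodes Bim, changed more than *Bbc3*. *Bmf* rose to 70.9 ± 40.2 RPM (SD, n = 6) in reaggregates against 1.71 ± 1.78 RPM (SD, n = 4) in flat cultures, with a log2 difference of 5.27 (SE 0.559, limma adjusted p = 0.000155), and *Bcl2l11* to 87.9 ± 22.9 RPM (SD, n = 6) against 10.4 ± 9.09 RPM (SD, n = 4), a log2 difference of 3.36. Both kept their calls in all 25 alternatives. *Bmf* was under the floor in flat cultures 2 and 4, at 0.239 and 0.243 RPM, and its log2 difference ranged from 4.13 to 6.42 over the alternatives. *Bid* had a log2 difference of −1.17, lost as a call without flat culture 4, with either IL-3 group alone, against the cultures without a source label and with consecutive reaggregates averaged. *Hrk* was listed at 0 in all libraries.
Among 12 genes of a list of sestrins, the GATOR2 complex that they bind and other regulators of mTORC1, 3 were called higher and none lower (1 lower without flat culture 3), with a median log2 difference of 0.06. Besides *Sesn1* these were *Sesn3*, with a log2 difference of 1.68 (limma adjusted p = 0.00238, range 8.26e-06 to 0.0577), and *Ddit4*, with 1.07. No gene of this list was called with consecutive reaggregates averaged.
Both *Sesn2* and *Gdf15* can also be raised by the transcription factor ATF4. Of 18 genes of the ATF4 response, 4 were called higher and 9 lower, with a median log2 difference of −0.97. *Sesn2* and *Gdf15* are themselves among the 18, neither of them called, so that the median is not independent of them. With consecutive reaggregates averaged 2 were called higher and 6 lower. *Chac1*, *Psat1*, *Mthfd2*, *Asns* and *Trib3*, mostly genes of amino acid and folate metabolism, had log2 differences of −2.65, −2.63, −2.41, −2.11 and −1.91 and were called lower in all 25 alternatives. *Asns*, which makes asparagine, had a mean of 53.5 ± 4.16 RPM (SD, n = 6) over reaggregates against 237 ± 51.3 RPM (SD, n = 4) over flat cultures. *Atf3* had a log2 difference of 4.08 and was called higher in all 25 alternatives. It also belongs to the list of genes that dissociation can raise.

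**Figure D3:**
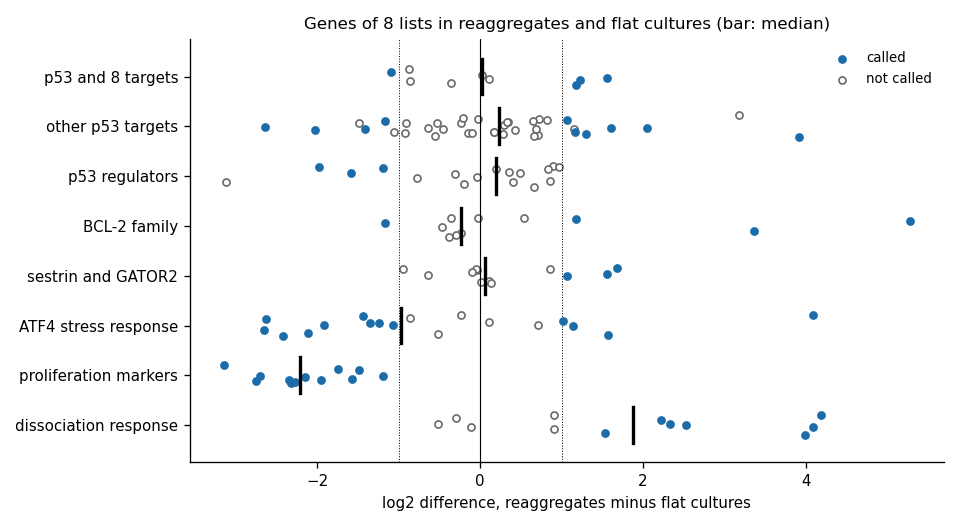
Log2 differences between reaggregates and flat cultures (horizontal axis, log2 scale) for every gene that passed the filter in 8 lists, with filled points for genes called, a bar at the median of each list and dotted lines at a 2-fold change. The members and the other p53 targets hold genes called in both directions around medians of 0.03 and 0.23, the regulators of p53 hold only genes called lower around a median of 0.20, and the proliferation markers lie below 0 throughout.

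Stromal markers and markers of 2 cell states moved with the comparison, and their part in the results for p53 targets was not tested. Of the 9 stromal markers that passed the filter, 7 were called higher in reaggregates and none lower, with a median log2 difference of 1.83, and 3 were called higher with consecutive reaggregates averaged. The 2 not called, *Vim* and *Mcam*, are named after their values were seen and were lower in the mean of reaggregates. Their log2 differences were −0.54 and −0.40 (limma adjusted p = 0.0787 and 0.544). Every reaggregate lay below every flat culture for *Vim*. For *Mcam* the groups overlapped, at 1.59 to 7.43 RPM in reaggregates and 1.96 to 9.1 RPM in flat cultures. *Dcn* and *Col3a1*, genes of the extracellular matrix, had log2 differences of 5.28 and 4.11, and both calls were lost with consecutive reaggregates averaged. *Lum*, with a log2 difference of 4.33, and *Pdgfrb*, with 1.74, were called in all 25 alternatives. All 12 proliferation markers were called lower in reaggregates, with a median log2 difference of −2.21, *Top2a* being the most abundant and none of them at 0. The number called lower was 9 with consecutive reaggregates averaged, 9 with either IL-3 group alone, 9 against the de Bruijn cultures alone and 10 without flat culture 1. Their summed level was between 302 and 459 RPM in reaggregates, with a median of 363 RPM, against 2279, 1027, 1873 and 1242 RPM in flat cultures 1 to 4. The largest differences among them were those of *Rrm2*, *Aurka* and *Ccnb1*, at −3.14, −2.75 and −2.70, and these 3 were called in all 25 alternatives. Flat cultures 1 and 3, with the higher sums, had the lower *Mdm2* and *Ccng1* of the flat cultures.
Of 12 immediate early and heat shock genes that enzymatic dissociation can raise, 7 were called higher and none lower, with a median log2 difference of 1.88. The most abundant was *Egr1*, and none was at 0. Their summed level was between 2559 and 3318 RPM in reaggregates, with a median of 2776 RPM, against 555, 864, 3187 and 969 RPM in flat cultures 1 to 4. Flat culture 3 thus lay within the range of the reaggregates. *Fosb*, *Atf3* and *Nr4a1* had log2 differences of 4.19, 4.08 and 3.98. The call of *Fosb* was lost in 4 of 25 alternatives, with consecutive reaggregates averaged among them, and those of *Atf3* and *Nr4a1* in none. The number of the 12 called higher was 2 with consecutive reaggregates averaged and 3 without flat culture 4. Without flat culture 3, the 4 members called with all libraries were called again, with log2 differences of −1.36 for *Ccng1*, 1.43 for *Trp53inp1*, 1.77 for *Sesn1* and 1.33 for *Bbc3*, and *Mdm2* was also called, at −1.01. Removal of flat culture 3 widens the difference of this list between the groups. It therefore does not test the part of dissociation in the members.

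Genes whose profile over the 10 libraries was most like that of a member were sought among 11661 genes with a mean of at least 5 RPM, as the root mean square (RMS) difference of centred log2 values. This is a description with no test. The nearest to *Ccng1* were *Mtpn*, *Arl6ip5* and *2900073G15Rik*, with RMS differences of 0.0797, 0.0939 and 0.0983, and the nearest to *Mdm2* were *Sdccag8*, *Abcb1b* and *Lrrfip1*, with 0.168, 0.185 and 0.194. *Bax* was nearest to *Ddx18*, *Taf10* and *Mtmr2*, with 0.0508, 0.0553 and 0.0766, and *Gdf15* to *Zfp503*, *Lig4* and *6530418L21Rik*, with 0.301, 0.307 and 0.31. No other member was among the 3 genes nearest to any of these 4. With only 3 of 11661 genes listed for each, this does not show whether members vary together. The 4 members measured are those with a log2 difference below 0 between reaggregates and flat cultures.

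Sequence before the start of transcription was examined for the letters that p53 binds, because the targets share a regulator by definition but not a direction of change. RefSeq promoter windows of GRCm38.p6, from 250 bases before to 50 after each start, were matched for 8 of the 9 members, in 12 windows, and *Trp53inp1* was not matched. The p53 half-site consensus, 10 letters that read the same on both strands, was found without mismatch in 1 window each of *Trp53*, *Mdm2*, *Ccng1*, *Sesn1* and *Bax*, which is 5 of the 12 member windows, and in 8.36% of all 32817 windows. A pair of half-sites with at most 13 bases between them and at most 1 mismatch in 20 letters was found for *Ccng1* and *Bax*, and in 1.09% of all windows. In *Ccng1* the half-sites of the pair were adjacent, from 195 to 176 bases before the start, and in *Bax* they were 1 base apart, from 212 to 192 bases before the start. A match describes the letters and is not evidence of binding, and a window without one says only that the letters are not in these 300 bases.
The 250 bases before the start are shown for the members with a pair, of which *Ccng1* was called lower and *Bax* was lower without a call, and 50 bases around the single half-site for *Mdm2*, *Sesn1* and *Trp53*. Capitals mark the half-sites, and each sequence runs 5′ to 3′ on the strand of its gene, which is minus at chr11:40755287-40755536 for *Ccng1*, minus at chr7:45466899-45467148 for *Bax*, minus at chr10:117710915-117710964 for *Mdm2*, plus at chr10:41887246-41887295 for *Sesn1* and plus at chr11:69580264-69580313 for *Trp53*.
Ccng1: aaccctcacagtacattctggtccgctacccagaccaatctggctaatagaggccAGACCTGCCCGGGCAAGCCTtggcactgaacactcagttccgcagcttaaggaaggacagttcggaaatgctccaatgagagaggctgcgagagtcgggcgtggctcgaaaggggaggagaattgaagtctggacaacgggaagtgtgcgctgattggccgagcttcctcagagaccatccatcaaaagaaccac
Bax: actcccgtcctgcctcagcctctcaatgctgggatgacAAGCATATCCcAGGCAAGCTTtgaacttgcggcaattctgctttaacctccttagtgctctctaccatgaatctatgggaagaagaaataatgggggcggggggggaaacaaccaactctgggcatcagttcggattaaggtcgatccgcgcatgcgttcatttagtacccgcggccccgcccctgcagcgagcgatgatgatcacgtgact
Mdm2: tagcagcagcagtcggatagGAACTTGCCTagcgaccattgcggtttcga
Sesn1: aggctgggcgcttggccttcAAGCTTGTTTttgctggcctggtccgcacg
Trp53: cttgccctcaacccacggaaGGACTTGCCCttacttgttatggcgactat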

How the data were processed

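RNA-seq libraries of 6 reaggregates and 4 flat cultures had been sequenced as single-end reads. The authors aligned these with TopHat 1.2.0 to NCBI37/mm9, summed them over Ensembl genes in GeneProf, shared out reads with several places of origin by the unique reads of each gene, and deposited the sums as RPM, not divided by gene length. Their fold change and adjusted p from DESeq were deposited as well and were not used. All value columns matched a library, leaving 0 unmatched.
The members and gene lists were chosen with earlier results of these data known. The commonest value above 0 was taken as 1 read, which gave the depth, and 3 reads as the floor. Only 43.5% to 59.9% of values up to 10 RPM lay within 0.05 of a whole multiple of it, so that counts were not recovered and no count test was run.
The linear model was fitted to log2(RPM + 0.5) with limma 3.58.1 in R 4.3.3 (empirical Bayes with trend, Benjamini-Hochberg adjustment) after testing on simulated data. A fold change on this scale understates that of low genes. Exact permutation was two-sided. Tables were handled in Python 3.11.15 with pandas 2.3.3 and numpy 2.4.6, and figures drawn with matplotlib 3.10.9.
All members are named. Genes named from the other lists were taken from those called, up to 6 per list by size of change with a group mean of at least 5 RPM, besides the most abundant gene of each marker list and markers at or under the floor. Genes outside this rule are said to be named after their values were seen. Likeness was measured for *Mdm2*, *Ccng1*, *Bax* and *Gdf15*. Coordinates and exon lengths came from an annotation of the same assembly but a later Ensembl release, and promoter sequences from RefSeq. Alternatives covered pseudocount, filter, scaling, trend, left-out libraries, subsets of libraries, averaging and blocks, and 1 of them was chosen after seeing the data. *Pmaip1* was not analysed here.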

Additional observations from a re-analysis of the deposited data

Results flagged for a closer look

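Values of each member and the mean log2(RPM + 0.5) of each other list were examined in the 6 reaggregates and in the 4 flat cultures for a library far from the rest of its group. Of 40 such groups 1 held such a library, where chance gives about 1 in 20, or 2. It was flat culture 3, in which the 12 immediate early and heat shock genes that dissociation can raise had a mean log2(RPM + 0.5) of 6.9, against 4.44, 4.69 and 4.60 in flat cultures 1, 2 and 4. The reaggregates ranged from 6.62 to 7.24 on the same scale. No member had a library this far from the others of its group. Flat culture 3 also had the highest *Trp53*, *Trp53inp1*, *Sesn2*, *Bbc3* and *Gdf15* of the flat cultures, at 153, 170, 82.0, 16.8 and 129 RPM, and the relation of these levels to the list was not tested.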

How the results depend on the processing

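In all 25 alternatives to the comparison of reaggregates with flat cultures, *Trp53inp1*, *Sesn1*, *Bbc3* and *Ccng1* kept their directions. No alternative pseudocount, filter, scaling or trend changed a call of a member. Leaving out 1 library at a time, the members called lower numbered 0 to 2, and all genes called higher 766 (without flat culture 4) to 2121 (without flat culture 3). With consecutive reaggregates averaged, 312 genes were called higher and 429 lower, with 1 and 0 members. With only the reaggregates without IL-3, 345 and 474 genes and 1 and 0 members were called, and with only those with IL-3, 277 and 360 genes and 1 and 0 members. Against the de Bruijn cultures alone, 2579 and 1775 genes were called, with 2 members lower. Against the cultures without a source label, 627 genes were called higher and 1044 lower, with 0 members higher and 0 lower. These settings hold fewer libraries, and the cause of the changes was not tested.
The labels number libraries in both groups, but same-numbered libraries did not deviate together (Pearson's r across genes of −0.04, −0.21, 0.07 and 0.16). This gave no sign that the numbers pair samples. It cannot exclude a pairing whose effect is small beside the other differences between libraries of a group. A fit with the replicate block over the libraries numbered 1 to 4 called 1884 genes higher, and 1898 without the block over the same libraries, an alternative chosen after seeing the data. The block changed no call of a member. Reaggregate 1 correlated best with flat culture 3 and not with its own number.
No member was called for IL-3 in any of 9 alternatives, with consecutive reaggregates as a block among them. For the source of flat cultures, all genes called higher and lower numbered 70 and 134 without the filter, 791 genes were called higher after quantile normalization, and leaving out any culture, which leaves 1 library in a group that is then assumed to vary like the other, gave 0 in both directions and 0 members lower.
All 9 members passed the filter, whereas 1 of 18 regulators, 2 of 40 other targets and 3 of 14 Bcl-2 family genes did not. For those genes low depth and absent expression cannot be told apart.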

Other observations

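Genes of the p53 lists differed between the flat cultures with and without the de Bruijn label, and the following were picked for that after their values were seen, so that no test is given. *Epha2*, an ephrin receptor, was at 30.8 and 37.1 RPM in flat cultures 1 and 3, at 205 and 171 RPM in flat cultures 2 and 4, and between 16.6 and 50.8 RPM in reaggregates. *Tgfa*, a ligand of the epidermal growth factor receptor, was at 23.3 and 58.2 RPM in flat cultures 1 and 3, listed at 0 in flat cultures 2 and 4, and between 34.2 and 41.9 RPM in reaggregates. Other genes of these lists split by the same label with reaggregates on the side of flat cultures 2 and 4. *Trp63* was at 13.8 and 19.6 RPM in flat cultures 1 and 3, at 4.65 and 5.10 RPM in flat cultures 2 and 4, and between 1.66 and 4.77 RPM in reaggregates. *Fas* was at 9.10 and 9.46 RPM in flat cultures 1 and 3, at 19.2 and 29.9 RPM in flat cultures 2 and 4, and between 23.2 and 51.4 RPM in reaggregates.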
